A study of Mus musculus with 16 samples.

Results

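The genes described here are the Eph receptors and their ephrin ligands, the Slits and their Robo receptors, and the netrins with their UNC5, DCC and neogenin receptors. They were taken as a list of 33 gene symbols, of which 32 matched a symbol in the deposited expression table. All 32 passed the filter on low counts, out of 18191 genes tested and 48709 gene features in the table. Ntn3 was not analysed here. The tissues were parotid epithelium, submandibular epithelium, parotid mesenchyme and submandibular mesenchyme of wild-type mouse embryos of the outbred ICR strain, all harvested at embryonic day 13. The epithelium is the branching bud of the gland, and mesenchyme is the loose tissue that surrounds it. Bulk RNA was sequenced from 4 libraries in each of the 4 groups, 16 in all, and the labels call the 4 of a group independent biological replicates. No source says how many embryos made up a library, and the design text of the series also speaks of glands cultured for days, whereas the sample titles and protocol speak of harvest at day 13.

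Eph receptors are receptor tyrosine kinases, and ephrins are ligands tethered to the surface of the neighbouring cell, so that contact can signal into both cells and make them repel or adhere. Slits are large secreted proteins that repel growing axons and migrating cells through Robo receptors. Netrins are laminin-related secreted proteins that attract through DCC and neogenin and repel through the UNC5 receptors. All of them are best known from growing axons, and in the mouse mammary gland Slit with Robo1, and netrin-1 with neogenin, are known to hold the cell layers of the epithelial bud together.

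Members that differed between the mesenchymes of the 2 glands lie on several chromosomes. By the GENCODE annotation of GRCm38, Epha3 is at chr16:63543534-63864175 on the minus strand, Ntn1 at chr11:68209364-68400823 on the minus strand and Unc5d at chr8:28646717-29219636 on the minus strand. Slit2 is at chr5:47983138-48307733 on the plus strand, Unc5c at chr3:141465216-141834924 on the plus strand and Efnb2 at chr8:8617434-8661242 on the minus strand. Promoter windows of 250 bases before to 50 bases after the transcription start, from RefSeq on GRCm38.p6, were given for 28 of the 33 listed genes, in 33 windows. They are printed for 4 members with large gland differences in mesenchyme, Epha3 and Slit2 with more RNA in parotid and Efnb2 and Unc5c with less, because their start sites differ in base composition and in GC boxes. Capitals mark the GC box GGGCGG, which SP factors bind, in either orientation.
Epha3, chr16:63864126-63864425, minus strand: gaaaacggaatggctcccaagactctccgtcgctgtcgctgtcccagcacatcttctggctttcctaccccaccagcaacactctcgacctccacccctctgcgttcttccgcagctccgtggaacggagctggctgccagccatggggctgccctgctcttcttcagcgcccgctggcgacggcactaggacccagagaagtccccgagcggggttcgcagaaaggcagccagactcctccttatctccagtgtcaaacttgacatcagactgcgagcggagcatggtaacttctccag
Slit2, chr5:47982905-47983204, plus strand: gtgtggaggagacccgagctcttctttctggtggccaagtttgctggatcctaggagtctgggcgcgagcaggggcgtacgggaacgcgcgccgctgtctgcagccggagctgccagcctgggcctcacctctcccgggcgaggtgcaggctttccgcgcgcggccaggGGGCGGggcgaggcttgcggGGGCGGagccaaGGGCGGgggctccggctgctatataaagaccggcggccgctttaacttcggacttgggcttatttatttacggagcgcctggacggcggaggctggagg
Efnb2, chr8:8661193-8661492, minus strand: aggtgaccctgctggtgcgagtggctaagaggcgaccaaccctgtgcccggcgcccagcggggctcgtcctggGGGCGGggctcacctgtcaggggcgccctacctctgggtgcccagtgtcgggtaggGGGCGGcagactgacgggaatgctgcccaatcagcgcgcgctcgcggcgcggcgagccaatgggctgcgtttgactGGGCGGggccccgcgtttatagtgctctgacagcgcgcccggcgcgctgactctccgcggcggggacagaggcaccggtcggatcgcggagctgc
Unc5c, chr3:141465314-141465613, plus strand: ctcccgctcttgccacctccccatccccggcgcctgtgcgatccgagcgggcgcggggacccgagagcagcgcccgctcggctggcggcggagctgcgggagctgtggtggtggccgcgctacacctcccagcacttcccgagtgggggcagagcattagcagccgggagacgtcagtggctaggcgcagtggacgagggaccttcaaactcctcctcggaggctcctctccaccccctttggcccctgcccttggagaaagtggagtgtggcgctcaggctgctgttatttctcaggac
On both strands, the letters GGGCGG were found in 23 of the 33 members' windows (69.7%) and in 35.7% of all 32851 windows of that length. Slit2 and Efnb2 had 3 GC boxes each, and Epha3 and Unc5c had none. The homeodomain core TAATTA, searched in the same way, was in 2 of the members' windows and in 5.29% of all windows, and in none of the 4 printed. The CpG dinucleotide occurred 18 times in the window of Epha3, 30 in Slit2, 35 in Efnb2 and 24 in Unc5c, against a median of 7 over all windows, and all 28 members had a window above that median. A match describes these letters only. GC boxes were present in a promoter of each direction and absent from the other of each direction.

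Counts assigned to genes totalled 21307466 to 23885698 in parotid epithelium, 19090077 to 27646844 in submandibular epithelium, 19080629 to 25846015 in parotid mesenchyme and 16912258 to 18583164 in submandibular mesenchyme. Levels are given as CPM, a library's counts scaled by its total and its TMM factor. The labels of the layers held against marker genes: 10 epithelial markers summed to 2437 to 2850.3 CPM in parotid epithelium and 2365 to 2807 CPM in submandibular epithelium, against 13.3 to 35.6 and 31 to 54.9 CPM in the mesenchyme of parotid and submandibular gland. Most of the sum in submandibular mesenchyme was Epcam, with a mean of 35.3 CPM. The 10 mesenchymal markers in epithelium summed to 0.976% of their level in mesenchyme in parotid gland and 0.684% in submandibular gland. These shares were not common to all the markers. In parotid gland Twist2 averaged 3.65 CPM in epithelium and 6.82 CPM in mesenchyme, and Fgf10 1.21 and 456 CPM. Among the 4 libraries of submandibular epithelium, replicate 3 had the highest mesenchymal sum, 273 CPM against 19.1 to 76.2 CPM in the others. In parotid epithelium the mesenchymal sum was 79.9 to 361 CPM, with the highest value in replicate 3. The sequencing numbers in the labels fall in a separate range for each of the 4 groups. A difference in the making of the libraries therefore cannot be told apart from a difference between glands or between layers.

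The mesenchyme of the 2 glands differed in more of these genes than the epithelium did, and the same was so over all genes. Between the mesenchymes 22 members and 6282 of all genes differed, and between the epithelia 13 members and 3801 of all genes. In parotid mesenchyme, Ntn1 and Epha3 were 15-fold and 8.86-fold higher than in submandibular mesenchyme, while the netrin receptors Unc5d, Unc5c and Unc5a were 23.5-fold, 11.7-fold and 5.15-fold lower. A gene is counted as higher or lower where edgeR's quasi-likelihood test gave a Benjamini-Hochberg adjusted p under 0.05 over all genes tested. Of the 32 members, 16 were higher and 6 lower in parotid than in submandibular mesenchyme, where 20.8% of all genes were higher and 13.7% lower. The shares among members were 50% and 18.8%, and their median log2 difference was 0.58, against 0.04 over all genes. With upper quartile scaling in place of TMM, the split of the members was 16 and 6 again, and 16.2% of all genes were higher and 18.8% lower. In epithelium 7 members were higher and 6 lower in parotid gland, with 11.2% and 9.72% of all genes, and the median was 0.24 against 0.00 over all genes. Without parotid epithelium replicate 4 and submandibular epithelium replicate 1, which held more erythroid RNA than any other epithelial library, 8 members were called in epithelium in place of 13. In bulk tissue, fewer cells of a type and less RNA per cell cannot be told apart.

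**Figure D1:**
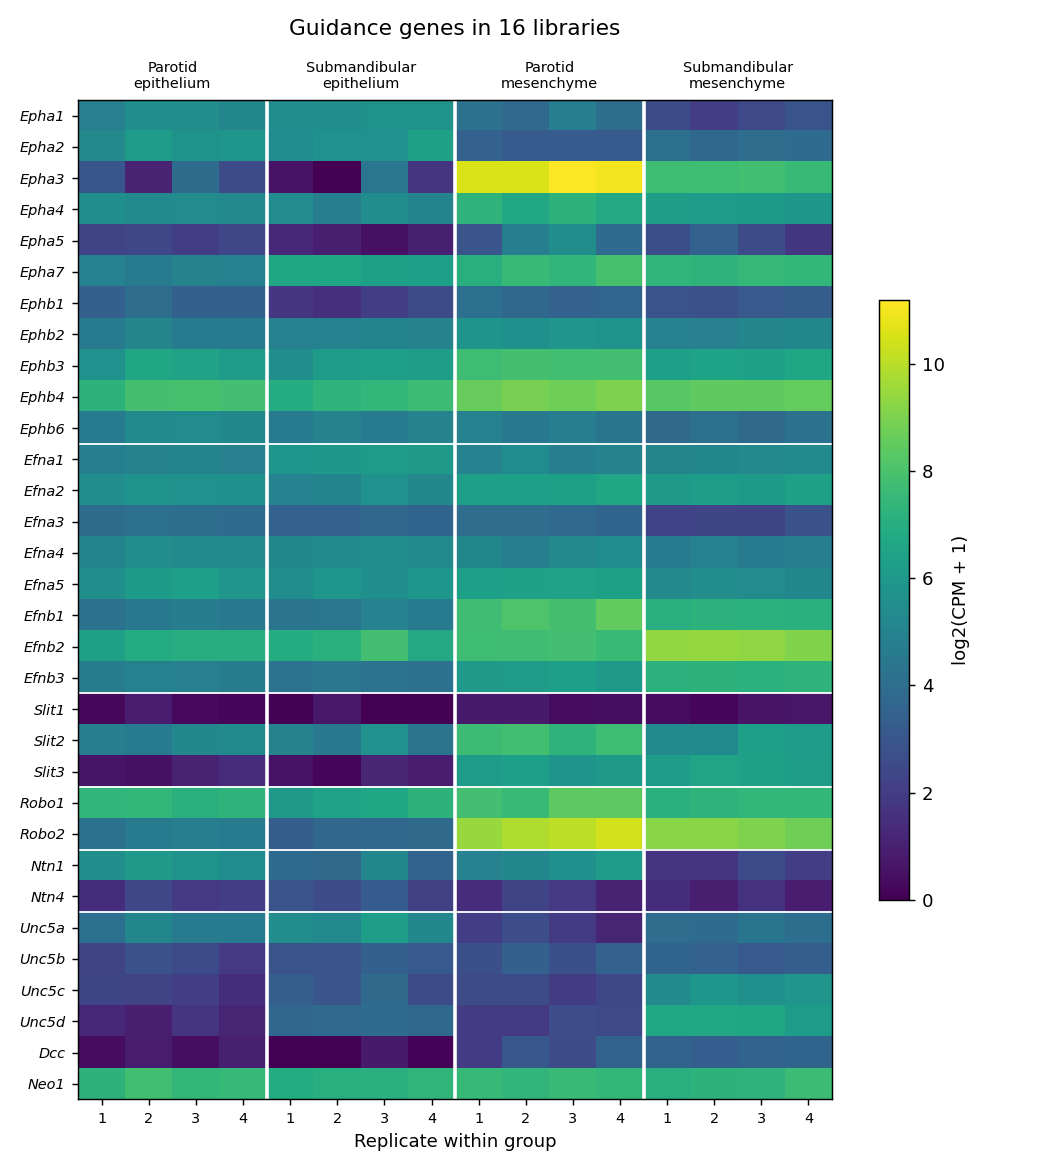
Levels of the 32 members in each of the 16 libraries, as log2(CPM + 1) in colour, with 1 library per column and white lines between groups and between families. Epha3 and Robo2 are the brightest in parotid mesenchyme, Efnb2 in submandibular mesenchyme, and Slit1 is near 0 throughout.

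The heat map shows how far the layers and glands differ member by member. To compare levels between genes, CPM were divided by the merged exon length in kb (GENCODE, which may differ from the annotation the authors counted with). On that per-length scale Ephb4, an Eph receptor best known from veins, had the highest level of the members in both epithelia, 46.8 ± 9.62 CPM per kb in parotid and 35.1 ± 7.17 CPM per kb in submandibular gland (SD, n = 4). In submandibular epithelium the ephrin Efna1 was next, at 34.9 ± 2.91 CPM per kb, which is within the spread of Ephb4. In parotid epithelium Efna4 was next, at 24.5 ± 3.32 CPM per kb. The mesenchymes differed in which member led. Epha3 had the highest level in parotid mesenchyme, 214 ± 48.1 CPM per kb, before Ephb4 with 97.5 ± 11.4 and Efnb1 with 79.2 ± 18.1. Efnb2 led in submandibular mesenchyme with 92.6 ± 8.95 CPM per kb, before Ephb4 with 74.9 ± 5.93 and Efnb3 with 46.6 ± 1.81. At the other end, Slit1 was the lowest member in both mesenchymes and Dcc in both epithelia.

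Among the 11 Eph receptors, 8 were higher and 1 was lower in parotid than in submandibular mesenchyme, with a median log2 difference of 0.80. That is 72.7% higher and 9.09% lower, beside 20.8% and 13.7% of all genes. Epha3, a receptor for A-type ephrins that many embryonic mesenchymes express, had 1498, 1526, 2357 and 2049.5 CPM in parotid mesenchyme, against 213, 209, 225 and 192 CPM in submandibular mesenchyme. Every parotid library was above every submandibular one (log2 fold change 3.15 ± 0.92, adjusted p = 0.0181, where ± is the SE). In epithelium Epha3 had 6.91, 1.17, 14.8 and 5.11 CPM in the parotid, compared with 0.467, 0, 20.1 and 2.31 CPM in submandibular gland. These ranges overlapped and the gland difference was not called (adjusted p = 0.827). The submandibular value of 20.1 CPM came from replicate 3, which also had the most mesenchymal marker RNA of the submandibular epithelial libraries. Without that library the gland difference in epithelium was 2.90 on the log2 scale and was called. The mesenchymal markers then no longer overlapped, with 79.9 to 361 CPM in parotid and 19.1 to 76.2 CPM in submandibular epithelium. Epithelial Epha3 amounted to 0.376% of the mesenchymal level in parotid and 2.72% in submandibular gland. The summed mesenchymal markers amounted to 0.976% and 0.684%, a share that varied between single markers. The part of carried-over mesenchyme in epithelial Epha3 was not tested.

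Epha1, an A-type receptor typical of epithelia, also differed in mesenchyme. It had 17.5, 13.1, 27 and 15.5 CPM in parotid mesenchyme, against 4.95, 3.15, 4.59 and 6.59 CPM in submandibular mesenchyme, again with no overlap (log2 fold change 1.93 ± 0.24, adjusted p = 8.85e-06). Epithelial levels were 28.8, 46.4, 45.2 and 34 CPM in the parotid, compared with 44.5, 45, 51.1 and 51 CPM in submandibular gland, with overlapping libraries and no call. The exons of Epha1 overlap those of Zyx on the other strand over 6.01% of their bases, and the library kits do not mark strand. Epha5, known from neurons, had 6.71, 27.1, 45.4 and 14.2 CPM in parotid mesenchyme, against 5.46, 10.6, 5.11 and 2.5 CPM in submandibular mesenchyme. It was called higher (log2 fold change 1.98 ± 0.49, adjusted p = 0.00519) although 1 parotid library lay within the submandibular range. Epithelial Epha5 was low, with 3.94, 4.27, 3.21 and 4.24 CPM in the parotid, compared with 1.44, 0.927, 0.424 and 0.99 CPM in submandibular gland. Its log2 fold change in epithelium was 2.01 ± 0.55, adjusted p = 0.0168, and the call was lost under limma-voom and without the pair of erythroid-rich libraries.

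Among the B-type receptors, log2 differences in mesenchyme reached 1.37 for Ephb3. Ephb3, a receptor that sorts cells along the intestinal crypt, had 209, 238, 226 and 230.4 CPM in parotid mesenchyme, against 78.4, 88.4, 85.3 and 97.8 CPM in submandibular mesenchyme (log2 fold change 1.37 ± 0.18, adjusted p = 1.94e-05). The groups did not overlap. In epithelium Ephb3 had 49.9, 95.1, 86.9 and 70.2 CPM in the parotid, compared with 45.1, 70.1, 79.9 and 76.6 CPM in submandibular gland, and these overlapped. Ephb2, its close relative, had 55.5, 49, 56.7 and 51.2 CPM in parotid mesenchyme, against 29.8, 28.6, 33.1 and 34.8 CPM in submandibular mesenchyme (log2 fold change 0.75 ± 0.11, adjusted p = 5.68e-05). All parotid libraries were again the higher ones. Epithelial Ephb2 had 23.4, 32.9, 23.8 and 24.3 CPM in parotid, where replicate 2 stood above the rest, and 29.6, 29, 32.1 and 31.6 CPM in submandibular gland, with no call. It was called without parotid epithelium replicate 2, at a log2 fold change of -0.34.

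Ephb1, a receptor known from retinal axons at the midline, was higher in parotid gland in both layers. It had 9.84, 15.1, 10.04 and 10.1 CPM in parotid epithelium, against 2.37, 1.93, 3.29 and 5.02 CPM in submandibular epithelium, a log2 fold change of 1.83 ± 0.27, adjusted p = 1.40e-04. In mesenchyme it had 15.9, 12.8, 10.4 and 11.5 CPM in parotid, against 6.53, 5.79, 7.79 and 8.98 CPM in submandibular gland (log2 fold change 0.80 ± 0.26, adjusted p = 0.0226). Neither pair of groups overlapped. The mesenchymal call was lost without parotid mesenchyme replicate 1 (0.66 on the log2 scale), submandibular mesenchyme replicate 1 (0.75) or submandibular mesenchyme replicate 2 (0.70). Epha4, which binds both ephrin classes, had 155, 101, 149 and 109 CPM in parotid mesenchyme, against 77.1, 70.3, 68 and 62.6 CPM in submandibular mesenchyme (log2 fold change 0.89 ± 0.16, adjusted p = 2.89e-04), with no overlap. Its epithelial levels overlapped, with 47.1, 40.5, 40.9 and 38.1 CPM in the parotid, compared with 41.3, 27, 43.8 and 32.5 CPM in submandibular gland.

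**Figure D2:**
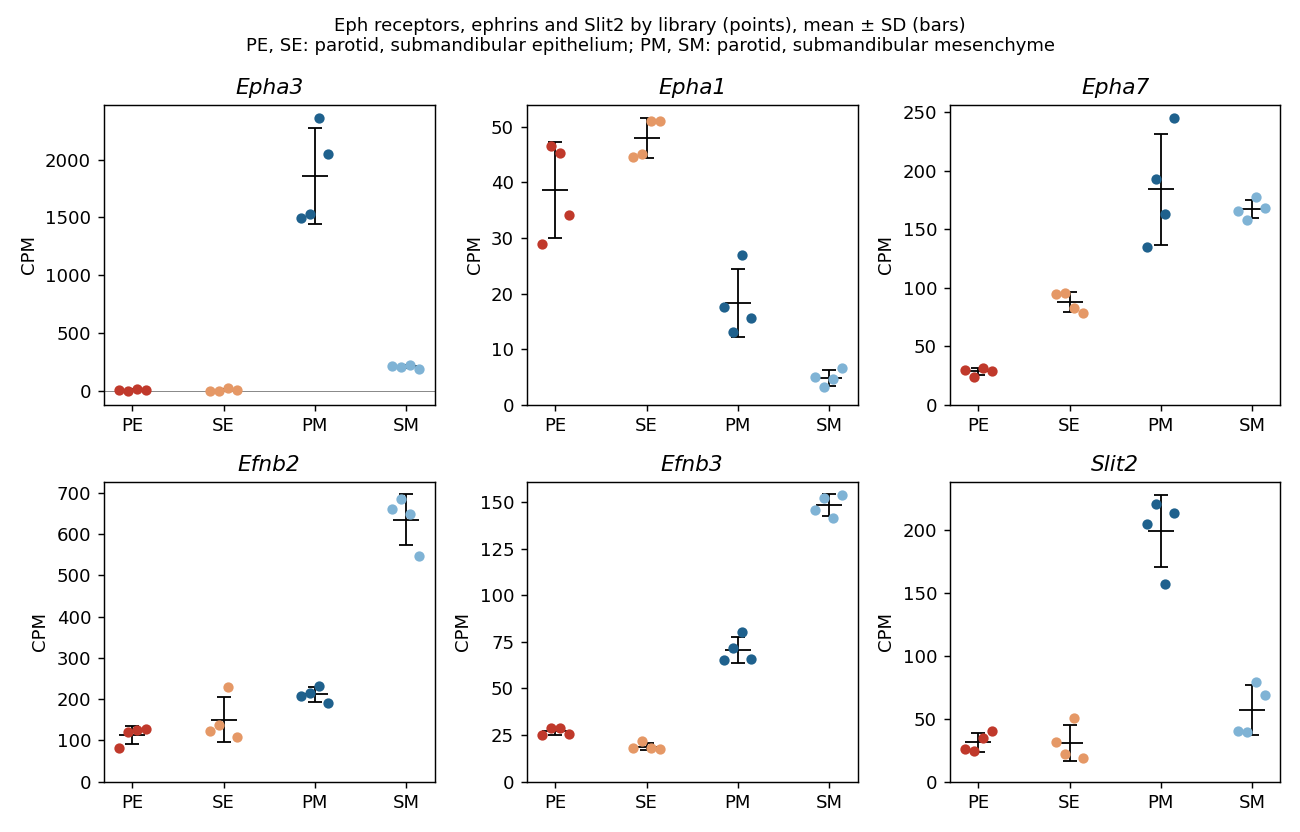
CPM of 3 Eph receptors, 2 ephrins and Slit2 in each library (points) with the group mean ± SD (bars), on linear axes from 0. Epha3, Epha1 and Slit2 were higher and Efnb2 and Efnb3 lower in parotid than in submandibular mesenchyme, and Epha7 was lower in parotid than in submandibular epithelium.

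Epha7, an A-type receptor known from neural tube closure, was the Eph receptor that was lower in parotid than in submandibular epithelium. It had 29.9, 23.7, 31.1 and 29.2 CPM in parotid epithelium, against 95, 95.1, 82.5 and 78.8 CPM in submandibular epithelium, which is a separation well beyond the spread (log2 fold change -1.63 ± 0.15, adjusted p = 1.19e-06). In mesenchyme it had 135, 193, 163 and 245 CPM in the parotid, compared with 166, 157, 177 and 168 CPM in submandibular gland, and the groups overlapped. The plot of single libraries shows this contrast between layers. Epha2, a receptor of epithelia for ephrin-A1, was the 1 Eph receptor lower in parotid than in submandibular mesenchyme, with 10.6, 8.16, 8.69 and 8.12 CPM in parotid, against 16.4, 12.7, 14.9 and 14.2 CPM in submandibular gland (log2 fold change -0.71 ± 0.21, adjusted p = 0.0151). That call was lost under limma-voom. In epithelium Epha2 had 37.1, 71.2, 52.4 and 58.5 CPM in the parotid, compared with 42.1, 49.7, 49.2 and 83.6 CPM in submandibular gland, with overlap. Ephb4 had 390.2, 482, 429 and 508 CPM in parotid mesenchyme and 308, 358, 351 and 372 CPM in submandibular mesenchyme. These did not overlap, but the log2 fold change of 0.38 was not called (adjusted p = 0.0658), though it was called in a fit of the 8 mesenchymal libraries (0.31, adjusted p = 0.0224). Ephb4 in epithelium ranged over 151 to 247 CPM in the parotid, compared with 121 to 202 CPM in submandibular gland, and was not called by edgeR (adjusted p = 0.0661) but was by DESeq2 (adjusted p = 0.0374). Ephb6, which lacks kinase activity, was higher in parotid mesenchyme with 19.2 to 30.3 CPM there, against 13.6 to 17.4 CPM in submandibular mesenchyme (log2 fold change 0.69 ± 0.18, adjusted p = 0.00653).

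Of the 8 ephrins, 4 were higher and 2 lower in parotid than in submandibular mesenchyme, and the 2 lower ones were B-type ephrins. That is 50% higher and 25% lower, beside 20.8% and 13.7% of all genes. B-type ephrins span the membrane and can themselves pass a signal into their cell, whereas A-type ephrins are held by a lipid anchor. Efnb2, the main ligand of Ephb4, had 207, 215, 232 and 190.4 CPM in parotid mesenchyme, against 660.5, 684, 649.8 and 546 CPM in submandibular mesenchyme. The groups were far apart (log2 fold change -1.59 ± 0.19, adjusted p = 9.71e-06). In epithelium it had 80.7, 119, 125 and 127 CPM in the parotid, compared with 123, 137, 229 and 109 CPM in submandibular gland. Those libraries overlapped, with replicate 1 low in parotid and replicate 3 high in submandibular epithelium, and there was no call. Efnb3, a B-type ephrin of the neural midline, differed in opposite directions in the 2 layers. It had 65.3, 71.8, 80.05 and 65.8 CPM in parotid mesenchyme, against 146, 152, 141 and 154 CPM in submandibular mesenchyme (log2 fold change -1.07 ± 0.09, adjusted p = 1.47e-07). In epithelium it had 25.1, 29, 28.6 and 25.8 CPM in parotid, against 18.2, 21.6, 18.1 and 17.3 CPM in submandibular gland (log2 fold change 0.53 ± 0.09, adjusted p = 6.86e-04). Libraries did not overlap in either layer. The third B-type ephrin, Efnb1, a gene of craniofacial development, was higher in parotid mesenchyme. It had 218, 277, 239 and 359 CPM there, against 132, 146, 140.4 and 136 CPM in submandibular mesenchyme (log2 fold change 0.98 ± 0.16, adjusted p = 1.51e-04). Its epithelial levels overlapped, with 17.3, 22.2, 25.7 and 22.4 CPM in the parotid, compared with 18.9, 19.95, 30.5 and 23 CPM in submandibular gland.

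Among the A-type ephrins, Efna1, the ligand of Epha2 on many epithelia, was lower in parotid than in submandibular epithelium. It had 27.9, 31.4, 32.7 and 28.7 CPM in parotid epithelium, against 58.2, 62.7, 71 and 63.4 CPM in submandibular epithelium, without overlap (log2 fold change -1.08 ± 0.12, adjusted p = 1.23e-05). In mesenchyme it had 30.4, 42.1, 27.2 and 31.5 CPM in the parotid, compared with 32.8, 33.8, 37.9 and 40.02 CPM in submandibular gland, and the groups overlapped. Efna3 and Efna5 were higher in parotid mesenchyme. Efna3 had 15.3, 15.2, 13.3 and 11.1 CPM there, against 3.73, 4.04, 4.03 and 5.88 CPM in submandibular mesenchyme (log2 fold change 1.63 ± 0.16, adjusted p = 7.25e-07). Efna5, an ephrin of retinal mapping, had 78.9, 85, 85.5 and 82.4 CPM in parotid mesenchyme, against 37.1, 45.2, 41.8 and 33.9 CPM in submandibular mesenchyme (log2 fold change 1.07 ± 0.14, adjusted p = 2.32e-05). For both genes every parotid library lay above every submandibular one. In epithelium Efna3 had 14.5, 15.8, 15.4 and 14.1 CPM in parotid, against 10.5, 10.5, 11.9 and 11.1 CPM in submandibular gland (log2 fold change 0.44 ± 0.15, adjusted p = 0.0484). That small difference lost its call without any one of 10 of the 16 libraries, at log2 fold changes of 0.43 to 0.50. Efna5 in epithelium had 46.8, 68, 78.8 and 57 CPM in the parotid, compared with 43.8, 58.8, 46.9 and 58.8 CPM in submandibular gland, and it was not called. Efna4 was higher in parotid mesenchyme, with 27.8 to 42.8 CPM there, against 23.1 to 29.3 CPM in submandibular mesenchyme (log2 fold change 0.47 ± 0.13, adjusted p = 0.00961), and its groups overlapped. Efna2 was called in epithelium, with 44.1 to 53.1 CPM in the parotid, compared with 30.1 to 49.2 CPM in submandibular gland (log2 fold change 0.40 ± 0.13, adjusted p = 0.0419), a call lost without any one of 8 of the 16 libraries, at 0.33 to 0.42. In mesenchyme its log2 fold change of 0.20 was not called, nor was the interaction of gland and layer (0.20). Efna1, Efna3 and Efna4 are neighbours on chromosome 3. Exons of Efna3 and Efna4 overlap genes of the other strand, Gm15998 and 4731419I09Rik, over 14.1% and 10.5% of their bases, and reads within those stretches cannot be assigned to a strand.

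**Figure D3:**
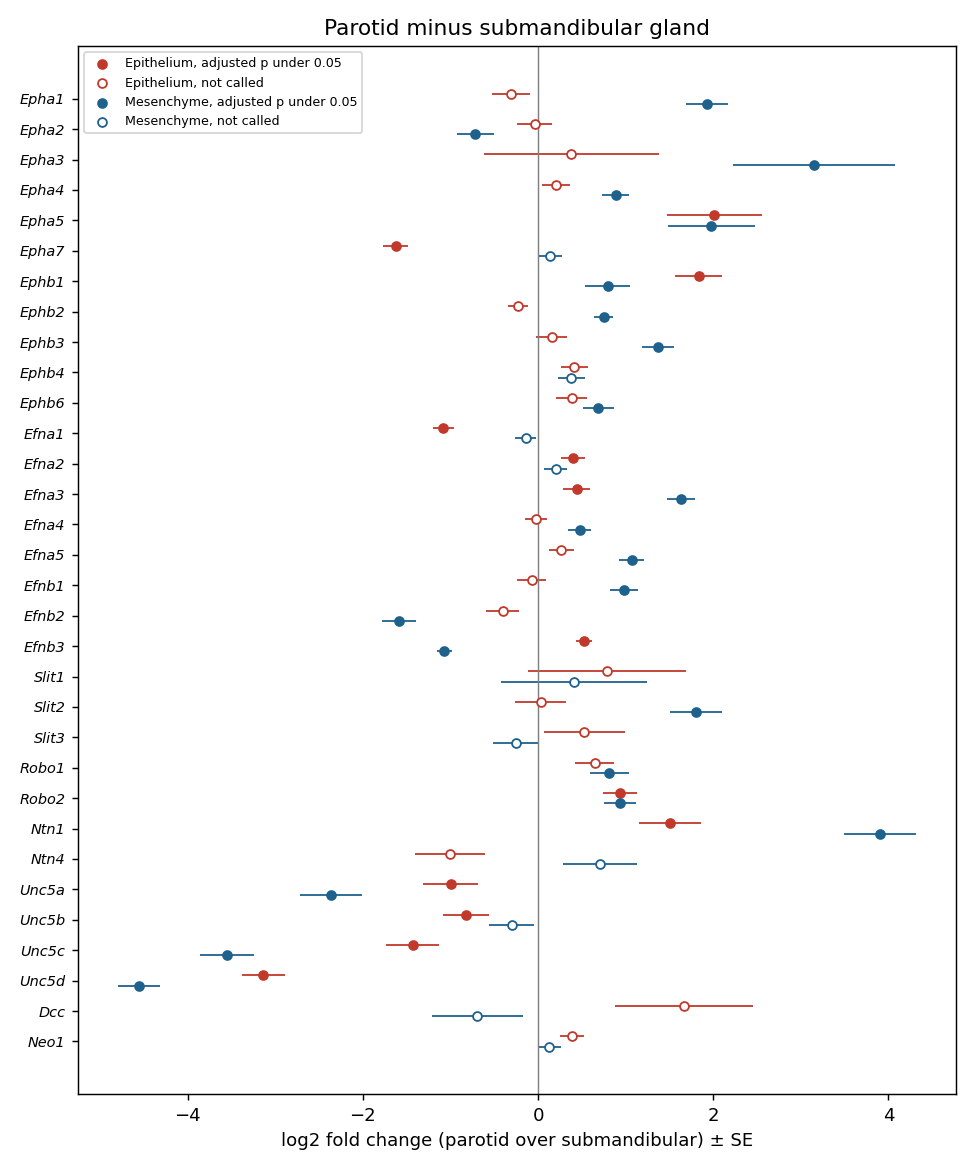
Log2 fold change of parotid over submandibular gland for each member in epithelium (red) and mesenchyme (blue), with bars for the SE. Filled points have an adjusted p under 0.05. In mesenchyme Ntn1 and Epha3 lie farthest right and Unc5d and Unc5c farthest left.

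Of the 3 Slits, Slit2 alone was called between glands. Slit2, a ligand of Robo1 and Robo2, had 205, 221, 157 and 213 CPM in parotid mesenchyme, against 40.2, 39.8, 78.9 and 68.9 CPM in submandibular mesenchyme, and the groups did not overlap (log2 fold change 1.81 ± 0.30, adjusted p = 2.21e-04). Its epithelial levels were 26.3, 24.2, 35 and 40.1 CPM in the parotid, compared with 31.6, 22.2, 50.4 and 19 CPM in submandibular gland, with overlap and no call. Slit3, a Slit of connective tissue, had 69.6, 79.4, 54.9 and 65.8 CPM in parotid mesenchyme and 69.99, 91.7, 83.5 and 75.5 CPM in submandibular mesenchyme, and these overlapped. Its epithelial levels were near 0, with 0.551, 0.422, 1.13 and 1.69 CPM in the parotid, compared with 0.467, 0.161, 1.27 and 0.807 CPM in submandibular gland. Slit1, mainly a neural gene, had at most 0.844 CPM in any library and was called in none of the 5 comparisons. Without submandibular epithelium replicate 2, its gland difference in epithelium was called at 3.41 on the log2 scale, from levels of less than 1 CPM.

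Both Robo receptors were higher in parotid mesenchyme. Robo2 had 701, 947, 1076 and 1399 CPM there, against 587, 599.8, 525 and 441 CPM in submandibular mesenchyme (log2 fold change 0.94 ± 0.18, adjusted p = 7.60e-04). In epithelium Robo2 had 17.3, 23.7, 26.8 and 22.6 CPM in parotid, against 8.99, 12.1, 12.7 and 13.6 CPM in submandibular gland (log2 fold change 0.93 ± 0.19, adjusted p = 0.00299). Neither layer showed overlap between the glands, and the interaction, the gland difference in epithelium minus that in mesenchyme, was not called (-0.01 ± 0.28, adjusted p = 0.996). Robo2 in epithelium amounted to 2.19% and 2.20% of its level in the mesenchyme of parotid and submandibular gland. Robo1, which is also found in epithelia, ranged over 186 to 347 CPM in parotid mesenchyme, against 136 to 172 CPM in submandibular mesenchyme (log2 fold change 0.82 ± 0.22, adjusted p = 0.00968). In epithelium it ranged over 138 to 172 CPM in the parotid, compared with 64.6 to 149 CPM in submandibular gland. That log2 fold change of 0.65 just missed the call (adjusted p = 0.0502) and was called under DESeq2 and limma-voom.

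The netrin genes held the members with the largest fold changes between the mesenchymes in both directions, Ntn1 and Unc5d. Netrin-1, encoded by Ntn1, had 29.9, 35, 48.3 and 73 CPM in parotid mesenchyme, against 2.25, 2.3, 4.7 and 3.21 CPM in submandibular mesenchyme (log2 fold change 3.90 ± 0.41, adjusted p = 2.85e-06). In epithelium it had 45.8, 64.3, 53.4 and 42.8 CPM in parotid, against 14.1, 13.6, 34.5 and 10.8 CPM in submandibular gland (log2 fold change 1.5 ± 0.35, adjusted p = 0.00774). No library of one gland overlapped the other in either layer. The submandibular epithelial value of 34.5 CPM came from replicate 3, and without it the epithelial difference was 2.02 on the log2 scale. Ntn4, a netrin of basement membranes that binds laminin, was low everywhere. It had 1.78, 4.22, 2.59 and 3.13 CPM in the parotid, compared with 6.51, 5.16, 8.54 and 3.37 CPM in submandibular epithelium, with overlap. In mesenchyme it had 1.66, 3.94, 2.65 and 1.07 CPM in the parotid, compared with 1.74, 0.949, 2.12 and 0.871 CPM in submandibular gland. Neither gland difference of Ntn4 was called.

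**Figure D4:**
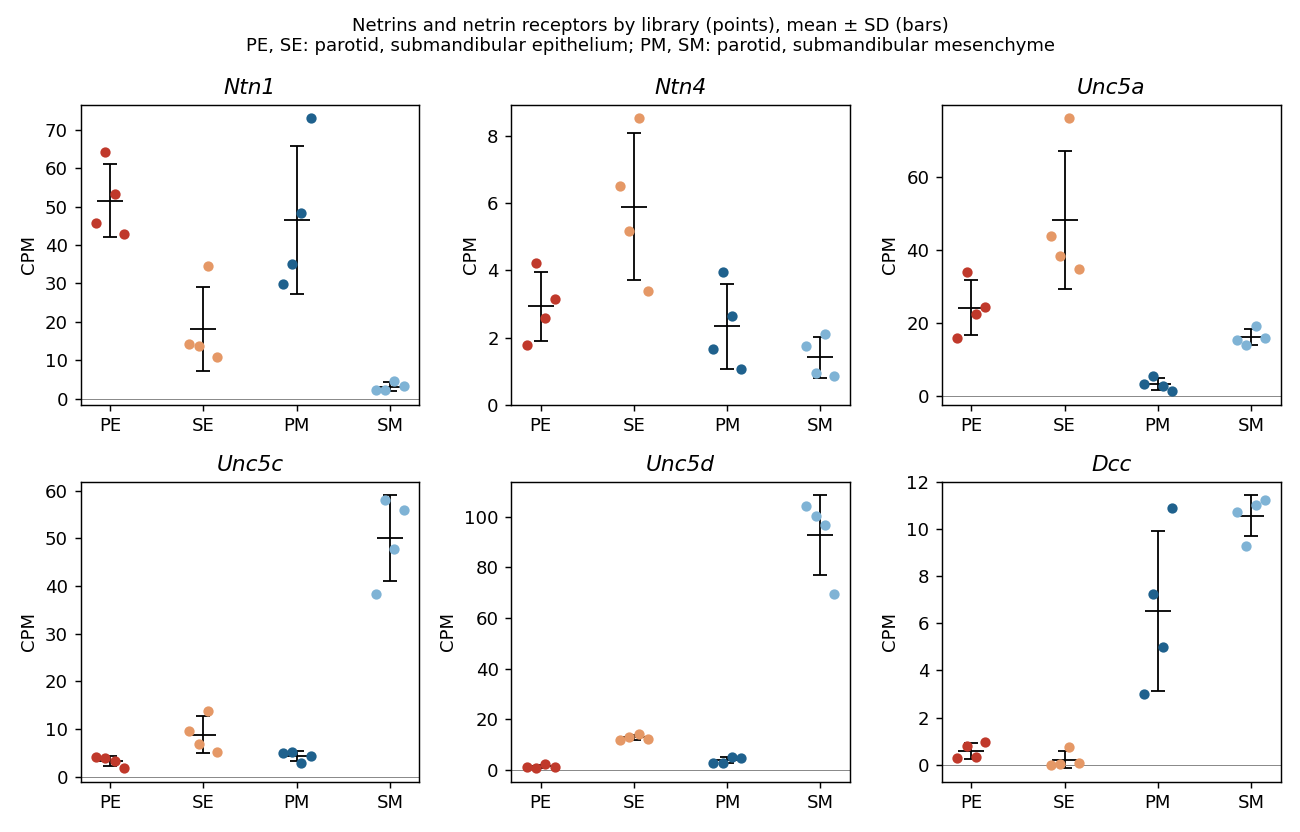
CPM of the netrins Ntn1 and Ntn4 and the receptors Unc5a, Unc5c, Unc5d and Dcc in each library (points) with the group mean ± SD (bars), on linear axes. Ntn1 was lowest, and Unc5c and Unc5d were highest, in submandibular mesenchyme.

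Of the 6 netrin receptors, 4 were lower in parotid than in submandibular epithelium and 3 were lower in parotid mesenchyme. The others were not called. The shares lower were 66.7% in epithelium and 50% in mesenchyme, beside 9.72% and 13.7% of all genes. Unc5d, an UNC5 receptor also known to bind FLRT proteins, had 3.0, 2.74, 5.25 and 4.62 CPM in parotid mesenchyme, against 104, 100.3, 96.8 and 69.5 CPM in submandibular mesenchyme (log2 fold change -4.55 ± 0.24, adjusted p = 1.01e-09). In epithelium it had 1.4, 0.891, 2.31 and 1.25 CPM in parotid, against 11.8, 13.2, 14.2 and 12.4 CPM in submandibular gland (log2 fold change -3.13 ± 0.25, adjusted p = 3.54e-07). The libraries were far apart in both layers. Unc5c, a repulsive netrin receptor of neurons and mesenchyme, had 4.88, 5.15, 2.8 and 4.34 CPM in parotid mesenchyme, against 38.4, 58.1, 47.8 and 56 CPM in submandibular mesenchyme (log2 fold change -3.55 ± 0.31, adjusted p = 2.43e-07). In epithelium it had 4.07, 3.85, 3.25 and 1.78 CPM in parotid, against 9.53, 6.73, 13.8 and 5.1 CPM in submandibular gland (log2 fold change -1.43 ± 0.30, adjusted p = 0.0031). Again no libraries overlapped. Unc5a, a repulsive netrin receptor of neurons, had 3.27, 5.31, 2.72 and 1.26 CPM in parotid mesenchyme, against 15.3, 14, 19.1 and 15.8 CPM in submandibular mesenchyme (log2 fold change -2.37 ± 0.35, adjusted p = 7.85e-05). In epithelium Unc5a had 15.9, 34.1, 22.5 and 24.4 CPM in parotid, against 43.8, 38.4, 76.2 and 34.9 CPM in submandibular gland (log2 fold change -1.0 ± 0.31, adjusted p = 0.0352). The epithelial libraries of Unc5a lay close together at the border, and the call was lost without any one of 5 of the 16 libraries, at -0.67 to -1.02. The plot of netrin genes shows Ntn1 and these receptors in opposite order in the mesenchyme of the 2 glands.

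Unc5b, the UNC5 receptor of vessels, ranged over 2.6 to 5.86 CPM in parotid epithelium, against 6.18 to 9.71 CPM in submandibular epithelium (log2 fold change -0.82 ± 0.26, adjusted p = 0.0339). That call was lost without any one of 6 of the 16 libraries, at -0.63 to -0.87. In mesenchyme Unc5b ranged over 5.69 to 10.6 CPM in the parotid, compared with 7.85 to 11.1 CPM in submandibular gland, with overlap. Dcc, the attractive netrin receptor, had 3.0, 7.23, 4.98 and 10.9 CPM in parotid mesenchyme and 10.7, 9.29, 11 and 11.2 CPM in submandibular mesenchyme, and these overlapped. The mesenchymal log2 fold change of -0.69 was not called by edgeR (adjusted p = 0.326) but was by limma-voom (-0.83, adjusted p = 0.0491). In epithelium Dcc was near 0, with 0.297, 0.798, 0.33 and 0.964 CPM in the parotid, compared with 0, 0.0403, 0.743 and 0.0733 CPM in submandibular gland. The highest submandibular epithelial value was again that of replicate 3, and without it the epithelial difference was called at 3.81 on the log2 scale. The mesenchymal markers then summed to 79.9 to 361 CPM in parotid and 19.1 to 76.2 CPM in submandibular epithelium. Their part in the Dcc difference was not tested. Neo1, which encodes neogenin, a receptor for netrins and repulsive guidance molecules, was called in none of the 5 comparisons. It had 149 to 220.3 CPM in parotid epithelium, 119.5 to 162 CPM in submandibular epithelium, 163 to 189 CPM in parotid mesenchyme and 134 to 205 CPM in submandibular mesenchyme. Its gland difference in epithelium, 0.39 on the log2 scale, just missed the call (adjusted p = 0.0512) and was called under DESeq2 and limma-voom.

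Other cell types differed between the mesenchymes as well. The 12 neuronal markers summed to 381 to 756 CPM in parotid mesenchyme, against 49.6 to 259 CPM in submandibular mesenchyme, and none of the 12 was at 0 in every library of either group. Within that list Stmn2 averaged 325 CPM in the parotid, compared with 13.3 CPM in submandibular mesenchyme. The 8 skeletal muscle markers summed to 388 to 1517 CPM in parotid, with the lowest value in replicate 4, against 172 to 354 CPM in submandibular mesenchyme. The 12 endothelial markers overlapped, with 600.4 to 916 CPM in the parotid, compared with 645 to 913 CPM in submandibular mesenchyme. The 8 erythroid markers did not overlap and were lower in the parotid, with 1431 to 2175 CPM, against 3279.6 to 4114 CPM in submandibular mesenchyme. The 10 macrophage markers overlapped, with 73.6 to 131 CPM in the parotid, compared with 55.8 to 81.3 CPM in submandibular mesenchyme, as did the 8 Schwann lineage markers, with 23.9 to 90.9 CPM in the parotid, compared with 37.5 to 71.8 CPM in submandibular mesenchyme. The part of these cell types in the gland differences of the guidance genes was not tested.

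Between the layers, the guidance genes were mostly lower in epithelium than in mesenchyme, in both glands. In parotid gland 4 members were higher and 19 lower in epithelium, where 31.4% of all genes were higher and 33.5% lower, with a median log2 difference of -0.85 against 0.00 over all genes. In submandibular gland 10 were higher and 17 lower, with 33.3% and 33.7% of all genes, and a median of -0.91 against 0.01. Epha3 had the lowest epithelial level relative to mesenchyme in parotid gland, with a log2 fold change of -8.05 ± 1.18, adjusted p = 4.40e-05, and -5.29 ± 1.06, adjusted p = 6.22e-04 in submandibular gland. Without submandibular epithelium replicate 3 the submandibular value was -7.80, and without parotid epithelium replicate 3 the parotid value was -8.71. Slit3 followed in parotid gland, with a log2 fold change of -6.16 ± 0.37, adjusted p = 5.40e-10. In submandibular gland, with all 16 libraries, Slit3 had the lowest value of the members, -6.94 ± 0.38, adjusted p = 2.02e-10. For Robo2 the value was -5.51 in each gland, and for Efnb1 -3.64 in parotid and -2.59 in submandibular gland. Dcc was lower in epithelium with a log2 fold change of -3.45 in parotid and -5.81 in submandibular gland, the second of which was -7.94 without submandibular epithelium replicate 3. In none of these 5 genes did a library of epithelium reach the range of the mesenchyme of its gland.

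**Figure D5:**
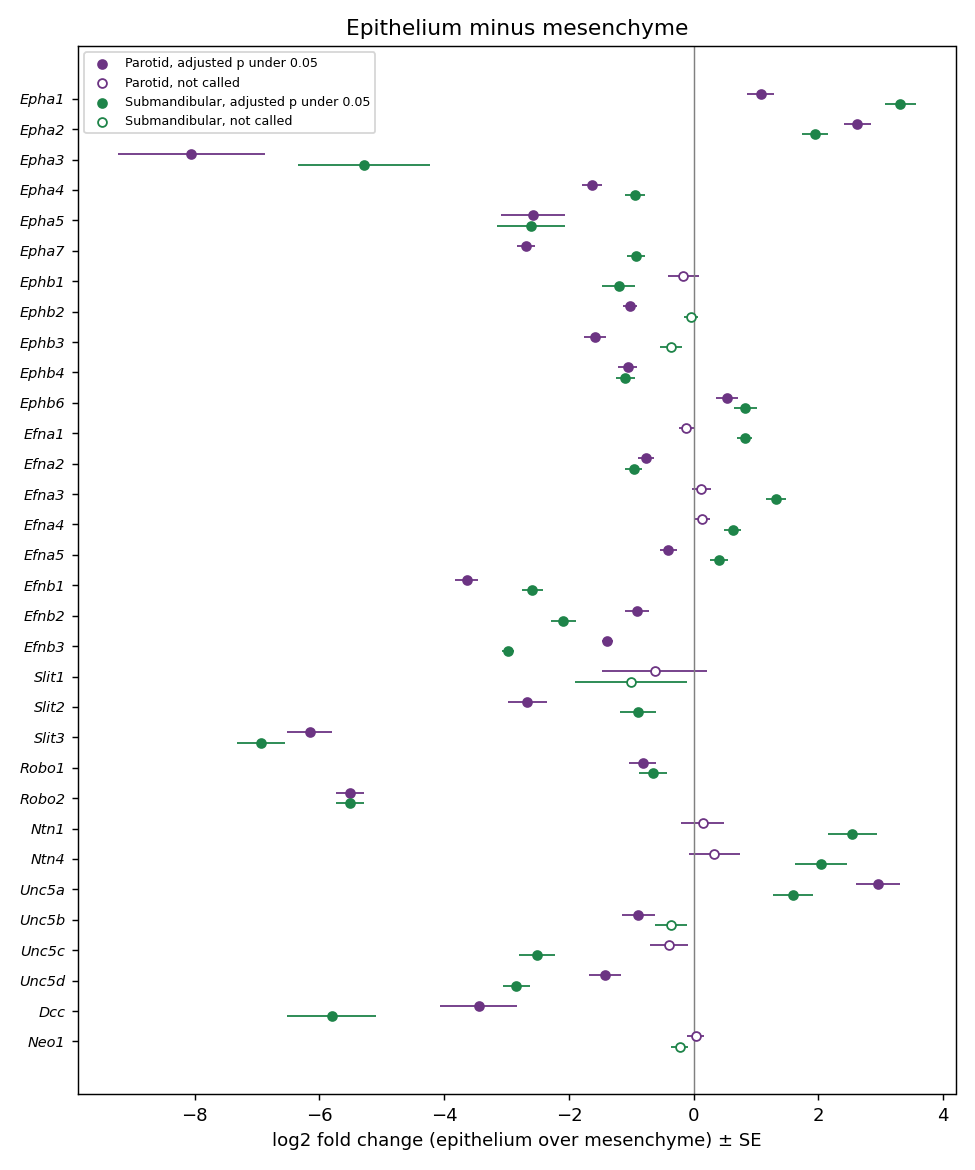
Log2 fold change of epithelium over mesenchyme for each member in parotid (purple) and submandibular gland (green), with bars for the SE. Filled points have an adjusted p under 0.05. Epha3, Slit3, Robo2 and Dcc lie far to the left in both glands, and Epha1, Epha2 and Unc5a to the right in both.

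The members higher in epithelium in both glands were Epha1, Epha2, Ephb6 and Unc5a. Epha2 had log2 fold changes of 2.62 ± 0.22, adjusted p = 1.64e-08 in parotid and 1.95 ± 0.21, adjusted p = 3.64e-07 in submandibular gland. Epha1 had 1.07 ± 0.22, adjusted p = 3.80e-04 in parotid and 3.31 ± 0.24, adjusted p = 3.32e-09 in submandibular gland. Unc5a had 2.96 ± 0.36, adjusted p = 1.82e-06 in parotid and 1.59 ± 0.32, adjusted p = 3.72e-04 in submandibular gland. Ephb6 had smaller values, 0.53 in parotid and 0.83 in submandibular gland, and the parotid call was lost without parotid mesenchyme replicate 4 (0.38). In submandibular gland 6 more members were higher in epithelium than in mesenchyme: Ntn1, Ntn4, Efna3, Efna1, Efna4 and Efna5. Ntn1 had 2.54 ± 0.40, adjusted p = 3.41e-05 in submandibular gland and an uncalled 0.15 in parotid gland, where it averaged 51.6 CPM in epithelium and 46.6 CPM in mesenchyme. Ntn4 had 2.05 ± 0.42, adjusted p = 3.62e-04 in submandibular gland and an uncalled 0.33 in parotid gland.

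Efna5 was the member called in opposite directions between the layers of the 2 glands, -0.41 in parotid and 0.40 in submandibular gland. The parotid call was lost without parotid epithelium replicate 1 (-0.27) or 4 (-0.35). The submandibular call was lost without any one of 4 libraries, at 0.32 to 0.37: replicates 2 and 4 of the epithelium, and replicates 1 and 4 of the mesenchyme. The remaining receptors were lower in epithelium or not called. Epha7 had log2 fold changes of -2.69 in parotid and -0.93 in submandibular gland, Epha5 -2.58 and -2.61, and Epha4 -1.62 and -0.94. Ephb4 had -1.06 in parotid and -1.10 in submandibular gland, so its high per-length level in epithelium was still below that of mesenchyme. Ephb2 and Ephb3 were lower in parotid epithelium (-1.02 and -1.58) and not called in submandibular gland (-0.05 and -0.37). For Ephb3 the submandibular adjusted p was 0.0805, and it was 0.0432 with RLE factors, 0.0347 with upper quartile scaling, 0.0352 with DESeq2 and 0.0456 in a fit of the 8 libraries compared, each of which makes it a call. Ephb1 was lower in submandibular epithelium (-1.20) and not called in parotid gland (-0.17).

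The ligands of the B class were lower in epithelium throughout. Efnb2 had log2 fold changes of -0.91 ± 0.19, adjusted p = 5.40e-04 in parotid and -2.09 ± 0.20, adjusted p = 8.68e-08 in submandibular gland, and Efnb3 had -1.38 ± 0.09, adjusted p = 9.87e-10 in parotid and -2.98 ± 0.10, adjusted p = 6.98e-13 in submandibular gland. Efna2 was lower in epithelium too, at -0.77 in parotid and -0.96 in submandibular gland. Slit2 had -2.66 ± 0.31, adjusted p = 1.49e-06 in parotid and -0.89 ± 0.29, adjusted p = 0.0141 in submandibular gland, where the call was lost without submandibular mesenchyme replicate 3 (-0.69). Robo1 was lower in epithelium at -0.82 in parotid and -0.65 in submandibular gland, the second of which was not called without submandibular epithelium replicate 1 (-0.50). Unc5d had -1.43 in parotid and -2.85 in submandibular gland, Unc5c an uncalled -0.40 in parotid and -2.52 in submandibular gland, and Unc5b -0.89 in parotid and an uncalled -0.36 in submandibular gland. The layer differences of the 2 glands share no library.

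A difference of the gland effect between layers was tested as an interaction, the gland log2 difference in epithelium minus that in mesenchyme. Of the 32 members 5 had a higher and 12 a lower value in epithelium, where 8.67% of all genes were higher and 12.2% lower, and the median was -0.23 against -0.04 over all genes. The 5 with a higher value were Unc5c (2.12 ± 0.42, adjusted p = 0.00159), Efnb3 (1.59 ± 0.13, adjusted p = 2.28e-07), Unc5d (1.42 ± 0.33, adjusted p = 0.00572), Unc5a (1.37) and Efnb2 (1.18 ± 0.27, adjusted p = 0.00481). All 5 were lower in parotid than in submandibular mesenchyme, and their gland difference was less negative, or for Efnb3 positive, in epithelium. Among the 12 with a lower value, Ntn1 (-2.40 ± 0.52, adjusted p = 0.00382), Epha1 (-2.24 ± 0.32, adjusted p = 8.99e-05), Slit2 (-1.78 ± 0.41, adjusted p = 0.00621), Ephb3 (-1.22 ± 0.25, adjusted p = 0.00233) and Efna3 (-1.19 ± 0.22, adjusted p = 8.52e-04) had parotid levels that stood out more in mesenchyme. Epha7 (-1.76 ± 0.20, adjusted p = 8.71e-06) and Efna1 (-0.94 ± 0.17, adjusted p = 8.26e-04) had the same sign, since they were lower in parotid than in submandibular epithelium and not called between the mesenchymes. Efnb1 (-1.06), Ephb2 (-0.98), Efna5 (-0.80), Ntn4 (-1.72) and Epha4 (-0.68) make up the rest. The calls of Unc5a, Ntn4 and Epha4 were lost without any one of 13, 11 and 10 of the 16 libraries, at 1.09 to 1.43, -1.83 to -1.33 and -0.69 to -0.56. Ephb1 was not called at 1.04 ± 0.36, adjusted p = 0.0539, and DESeq2 called it (adjusted p = 0.0191), as did limma-voom (adjusted p = 0.0293). For Epha3 the interaction was large but not called (-2.77 ± 1.33, adjusted p = 0.168). For Dcc it was 2.36 ± 0.94, adjusted p = 0.0886, or 4.50 and called without submandibular epithelium replicate 3. With all 16 libraries the Dcc interaction was called by DESeq2 (2.32, adjusted p = 0.0337) and by limma-voom (3.50, adjusted p = 0.0228).

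Other genes of these pathways, 56 listed and 52 tested, were read in the same fit. They comprised further family members, Eph and Robo effectors and partners of netrin receptors. In parotid over submandibular epithelium 19 were higher and 1 lower, which is 36.5% and 1.92% of them beside 11.2% and 9.72% of all genes, with a median log2 difference of 0.26. In mesenchyme 20 were higher and 6 lower, 38.5% and 11.5% beside 20.8% and 13.7% of all genes, with a median of 0.17. The 1 lower gene was Ngef, at less than 5 CPM in both epithelia. Without submandibular epithelium replicate 1 the number called in epithelium was 13 in place of 20. Fyn, a SRC-family kinase that acts below Eph and netrin receptors, was higher in parotid gland in both layers. Fyn averaged 111 ± 16.5 CPM in parotid epithelium, against 59.7 ± 6.96 CPM in submandibular epithelium. In mesenchyme it averaged 487 ± 34.8 CPM in parotid, against 169 ± 8.75 CPM in submandibular gland (SD, n = 4). Flrt1, whose protein belongs to the FLRT family that binds UNC5 receptors, was higher in parotid gland in both layers too, by log2 fold changes of 0.88 in epithelium and 2.07 in mesenchyme. Anks1, an adaptor of Eph receptors, was higher in parotid epithelium (0.88 ± 0.17, adjusted p = 0.00178) and lower in parotid mesenchyme (-0.49 ± 0.17, adjusted p = 0.0334).

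In mesenchyme, Epha6, an Eph receptor outside the list, averaged 7.78 ± 4.14 CPM in the parotid, compared with 0.297 ± 0.211 CPM in submandibular gland (log2 fold change 4.68 ± 0.58, adjusted p = 8.92e-06). Ntng1, a membrane-anchored netrin G, was higher there too (2.22 ± 0.39, adjusted p = 2.94e-04). Ngef, the ephexin that acts below EphA receptors, had the lowest parotid level relative to submandibular gland, 0.662 ± 0.224 CPM in parotid, against 15.4 ± 0.849 CPM in submandibular mesenchyme (-4.52 ± 0.42, adjusted p = 4.29e-07), so that this EphA partner and Epha3 differed in opposite directions. Ablim1, an actin-binding protein related to a netrin effector of the worm, and Vav3, a guanine nucleotide exchange factor, were also lower in parotid mesenchyme, at -1.51 and -1.26 on the log2 scale. Between the layers 15 of the 52 were higher and 23 lower in parotid epithelium, with a median of -0.19. These are 28.8% and 44.2%, beside 31.4% and 33.5% of all genes. In submandibular epithelium 13 were higher and 27 lower, 25% and 51.9% beside 33.3% and 33.7% of all genes, with a median of -0.46. Tiam1, a Rac exchange factor bound by ephrins, was higher in epithelium in both glands (1.20 in parotid and 1.57 in submandibular). Pak1 (1.09) and the adaptor Nck2 (1.03) were higher in parotid epithelium. Flrt2 (1.71) and Dag1, the dystroglycan that binds Slit (1.20), were higher in submandibular epithelium. Trio, the exchange factor that acts below DCC, was lower in epithelium in both glands (-3.63 in parotid and -3.41 in submandibular), and Ngef was lower in submandibular epithelium (-3.54).

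Robo4, the Robo of endothelial cells, averaged 0.179 CPM in parotid epithelium and 29.4 CPM in parotid mesenchyme. In submandibular epithelium it had 0 counts in all 4 libraries, against 30.8 CPM in submandibular mesenchyme, which makes it at least 1011-fold lower in epithelium with the group put at 3 counts in all. The endothelial markers in epithelium summed to 4.75 to 17.2 CPM in the parotid, compared with 4.3 to 8.25 CPM in submandibular epithelium. Epha6 had 1 count in the 4 libraries of parotid epithelium, a level 640-fold below parotid mesenchyme with a 95% exact counting interval of 114 to 25312, which covers counting error only. In the interaction 10 of these 52 genes were higher and 10 lower, 19.2% each beside 8.67% and 12.2% of all genes, with a median of 0.02.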

How the data were processed

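RNA was made into full-length cDNA and tagmented libraries, which do not mark strand, per the labels' protocols. Per the submitters' processing notes, STAR 2.5.2a and edgeR were used with GRCm38 (mm10). Read counter and annotation: not given in the sources used here. A raw table deposited by the authors holds whole-number counts per gene. A second deposited table holds a part of these counts, and another a normalized signal, which the authors name CPM with TMM scaling. CPM recomputed from the raw counts equalled that signal to a relative difference of 5.00e-15. The 92 ERCC spike-in features, 0.00115 to 0.00651% of counts, were not part of library sizes or tests. All 24 pairs of libraries within groups differed by more than sampling noise (chi-square per gene 9.56 to 47.9). Independence of replicates rests on the labels, and otherwise p-values measure the spread between these samples only.

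Counts were fitted with edgeR 4.0.16 (R 4.3.3; robust quasi-likelihood, TMM factors of 0.926 to 1.09, filterByExpr), with 1 coefficient per group over 16 libraries, and 5 contrasts were tested with Benjamini-Hochberg adjustment over 18191 genes. A call is an adjusted p under 0.05, and SEs were taken as the size of the log2 fold change over the square root of F. The procedure was tested on simulated data. The members, the lists of other genes and markers, and the tests were chosen with earlier results of these data known. Members called and changed at least 2-fold between groups with at least 5 CPM in the higher group, or called in the interaction with at least 5 CPM in a group, are given library by library. Other pathway genes are named by the 3 largest called changes in each direction with at least 5 CPM. Alternatives were RLE and upper quartile scaling, other filters, DESeq2 1.42.0, limma-voom (limma 3.58.1), fits to 8 libraries, a replicate block, leaving out libraries, and leaving out a pair of erythroid-rich epithelial libraries. Promoter sequences are from RefSeq (GRCm38.p6), and merged exon lengths from GENCODE.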

Additional observations from a re-analysis of the deposited data

Results flagged for a closer look

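In 7 of 119 member and group combinations, 1 library stood apart from the other 3 by Dixon's criterion at the 95% level. Chance marks about 1 in 20 groups. The libraries were submandibular epithelium replicate 3 for Epha3 (20.1 CPM, others 0 to 2.31) and for Ntn1 (34.5 CPM, others 10.8 to 14.1), and parotid epithelium replicate 2 for Ephb1 (15.1 CPM, others 9.84 to 10.1) and for Ephb2 (32.9 CPM, others 23.4 to 24.3). They were also parotid epithelium replicate 1 for Efnb2 (80.7 CPM, others 119 to 127), parotid mesenchyme replicate 4 for Efna2 (94.5 CPM, others 77.9 to 80.4) and submandibular mesenchyme replicate 4 for Efna3 (5.88 CPM, others 3.73 to 4.04).

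The gland difference differed between epithelium and mesenchyme, by edgeR's test of the interaction, for 17 members. On the log2 scale the value was -2.24 for Epha1, -0.68 for Epha4, -1.76 for Epha7, -0.98 for Ephb2 and -1.22 for Ephb3. It was -0.94 for Efna1, -1.19 for Efna3, -0.80 for Efna5, -1.06 for Efnb1, 1.18 for Efnb2 and 1.59 for Efnb3. It was -1.78 for Slit2, -2.40 for Ntn1, -1.72 for Ntn4, 1.37 for Unc5a, 2.12 for Unc5c and 1.42 for Unc5d.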

How the results depend on the processing

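Of 2533 recomputed values for the 102 called member changes, 2431 kept their direction and their call, 102 kept the direction and lost the call, in 15 member changes, and 0 reversed. Between the epithelia, 3801 genes were called, against 1846 without parotid epithelium replicate 4 and submandibular epithelium replicate 1 together, and 2452 to 4540 with single libraries left out, the lowest without submandibular epithelium replicate 1. Members called there were 13, against 8 without that pair and 9 to 15 with single libraries left out. Other pathway genes called there were 20, against 13 without the pair and 13 to 23 with single libraries left out. Counts in the other 4 comparisons stayed within 1.5 times under all alternatives. Upper quartile scaling shifted the median of all genes between the mesenchymes by -0.11 on the log2 scale, and no member reversed under it.

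Deviations of same-numbered libraries correlated at -0.12 to 0.22, those of other numbers at -0.17 to 0.21, and 3 of 24 same-number pairs were over 0.1. Same-number values were 0.02 to 0.22 between the submandibular layers, where other numbers gave -0.17 to 0.21. They were 0.02 to 0.16 between the epithelia, where other numbers gave -0.12 to 0.08. Between the parotid layers they were -0.12 to -0.01, where other numbers gave -0.15 to 0.21. Such ranges cannot settle whether replicate numbers pair the samples. With a replicate block, 15 members were called between the epithelia, 23 between the mesenchymes, 23 and 28 between the layers of parotid and submandibular gland, and 17 in the interaction. That block called Ephb4 between the epithelia (adjusted p = 0.00722) and the mesenchymes (0.00669), and Ephb3 between the layers of submandibular gland (0.0163). Levels under 1 CPM, such as those of Slit1 and epithelial Dcc, limit what could be seen at this depth.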
